A study of Homo sapiens with 6 samples.

Results

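Matricellular proteins are secreted into the extracellular matrix, where they do little to build its scaffold. They instead bind matrix fibres, growth factors and cell-surface receptors such as integrins, and so tune how cells adhere, migrate and receive signals. In glioblastoma they are known from the tumour's vessels and its invasive border, and several of them, periostin and tenascin-C among them, are also made during wound repair. RNA levels of 10 such genes were compared in A172 cells, namely POSTN, TGFBI, SPARC, SPARCL1, THBS1, THBS2, TNC, TNR, SPP1 and FBLN1, taken by name from the 58051 genes of the count files. POSTN was selected on its fold change between RBFOX1 and GFP cells in these same libraries, and the rest were set beside it as matricellular genes with earlier results of the data known. The members' values are therefore given as a description, without p-values, and nothing is supported with them. The lists of other genes below were chosen by family or known binding, but also with earlier results of the data known.

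The A172 line derives from a human glioblastoma. Stable lines were made with a lentiviral construct carrying either RBFOX1, which encodes an RNA-binding protein of neurons and muscle, or GFP as the control, with 3 biological replicates of each, and all cells thus share the viral transduction. Whether the lines were pools or single clones, and the time between transduction and RNA extraction, are not given in the sources used here. Ribosomal RNA was removed from total RNA before strand-specific libraries were made, and these gave 7433414 to 23249221 counts on genes.

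The construct gene RBFOX1 had 4, 0 and 1 counts in the GFP libraries and 10276, 16467 and 21451 counts in the RBFOX1 libraries (log2 fold change 13.55, adjusted p = 2.45e-23). Of the glioblastoma and astroglial markers, VIM, NES, CD44 and EGFR were well expressed in every library, whereas GFAP had 1 to 4 counts and S100B 0 to 2 counts. GFP replicate 1, the deepest library, stood apart from GFP replicates 2 and 3. Chi-square statistics over genes, divided by their degrees of freedom, were 8.9 and 9.07 against these libraries and 1.66 between them. Values without it are given for FBLN1, and for TNXB, LRP1 and TGFB1, whose call changed without it.

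The members lie on 8 chromosomes of GRCh38. POSTN (ENSG00000133110) spans chr13:37562583-37598844 on the minus strand, and TGFBI (ENSG00000120708) and SPARC (ENSG00000113140) lie on chromosome 5 at chr5:136028988-136063818 and chr5:151661096-151686975. THBS1 (ENSG00000137801) spans chr15:39581079-39599466, THBS2 (ENSG00000186340) chr6:169215780-169254050 and TNC (ENSG00000041982) chr9:115019575-115118207. SPARCL1 (ENSG00000152583) at chr4:87473335-87531061 and SPP1 (ENSG00000118785) at chr4:87975667-87983532 share chromosome 4. TNR (ENSG00000116147) spans chr1:175315194-175743595 and FBLN1 (ENSG00000077942) chr22:45502238-45601135.

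RBFOX1 binds RNA at the motif TGCATG, so the 3′ UTR of each member's canonical transcript was searched for these 6 letters on the transcript strand. Of the 10 members, 5 held the motif, compared with 33.3% of all 19541 protein-coding 3′ UTRs. SPARC held 3 sites, TGFBI and THBS2 held 2 each and THBS1 held 1, and these are shown because their genes were compared and included higher (SPARC, THBS1) and lower ones (TGFBI, THBS2) in RBFOX1 cells. The motif is in capitals, and each line gives a window of 24 bases read 5′ to 3′.
SPARC site at chr5:151662416-151662421: tgggtgattTGCATGtgtcttagt
SPARC site at chr5:151661757-151661762: tgagagccaTGCATGattagtggt
SPARC site at chr5:151661633-151661638: caaagctcaTGCATGttcatcatg
THBS1 site at chr15:39597891-39597896: caacacgatTGCATGttgtggaga
TGFBI site at chr5:136063370-136063375: tgagccttgTGCATGtgggggagg
TGFBI site at chr5:136063442-136063447: ttaacccacTGCATGcagaaactt
THBS2 site at chr6:169217784-169217789: aatgccctgTGCATGccatggtcc
THBS2 site at chr6:169216395-169216400: gctttaagtTGCATGatctttctg
TNR held 3 sites, and the 3′ UTRs of POSTN, TNC, SPP1, FBLN1 and SPARCL1 held none. How often a 3′ UTR holds the motif grows with its length. Among 3′ UTRs within 20% of the same length it was present in 15.9% for TGFBI (592 nucleotides), 54.2% for SPARC (2475 nucleotides), 46.7% for THBS2 (2037 nucleotides), 68.7% for THBS1 (4097 nucleotides) and 20.5% for POSTN (748 nucleotides).

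Of the 10 members, 8 had at least 10 counts over the 6 libraries and entered the comparison. POSTN, THBS1, SPARC and FBLN1 were higher and TNC, SPP1, TGFBI and THBS2 were lower in RBFOX1 cells. Because the members were chosen with this contrast in view, their counts past a threshold are no test of them and nothing is read from these. In the fit over 20536 genes (edgeR's quasi-likelihood test) 46.7% had an adjusted p under 0.05, all 8 members among them. The RBFOX1 and GFP libraries did not overlap in 53.4% of genes, again with all 8 members among them.

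**Figure D1:**
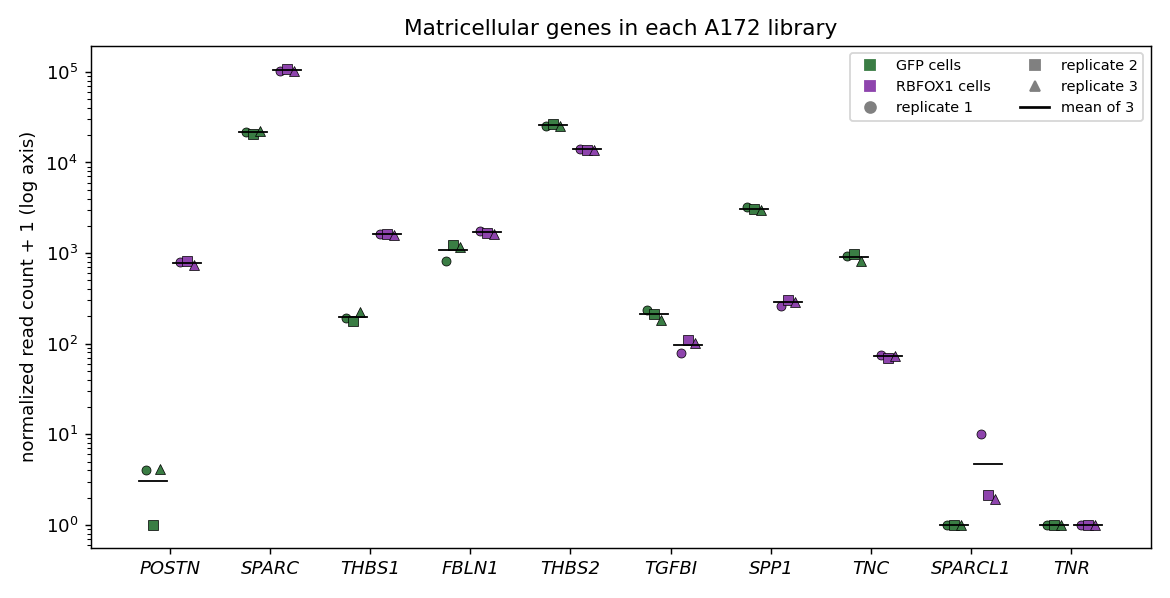
Normalized read count plus 1 (log axis) of the 10 genes in each library, in green for GFP and purple for RBFOX1 cells, with a symbol for each replicate and a bar at the mean of 3. POSTN goes from 0 to 3.16 normalized counts in GFP cells to 742 to 823 in RBFOX1 cells, TNC from 823 to 968 down to 68.8 to 74.4, and TNR is at 0 in every library.

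POSTN encodes periostin, which binds integrins through its fasciclin domains and links fibronectin, tenascin-C and collagen I in the matrix. It had 5, 0 and 3 counts in GFP replicates 1, 2 and 3, and 434, 741 and 813 counts in RBFOX1 replicates 1, 2 and 3. After normalization these came to 3.04, 0 and 3.16 against 787, 823 and 742 normalized counts. The gene was thus near the limit of 3 counts in every GFP library and far above it in every RBFOX1 library. The fitted log2 fold change was 8.33 (standard error 0.184, 95% interval 7.94 to 8.71), or 321-fold. Only 6 of the genes tested had a higher one, the construct gene RBFOX1 among them. POSTN was selected on this value, so its high place is no result, and the place was taken in the main fit only. Because the GFP level rests on 8 counts in all, the size of this fold is uncertain. The log2 fold change ranged from 7.93 to 8.76 when each library was left out in turn. Neither neighbour of POSTN had more than a few reads. TRPC4, 33218 bp away on the same strand, went from 4, 3 and 3 to 1, 0 and 1 counts, and CSNK1A1L from 0 in each GFP library to 1, 0 and 1 counts.

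TGFBI encodes a secreted protein with the same fasciclin domains as periostin, named for its induction by TGF-beta. Its normalized counts were 236, 209 and 182 in the GFP libraries and 78, 109 and 99.5 in the RBFOX1 libraries. All 3 RBFOX1 libraries lay below all 3 GFP libraries, opposite in direction to POSTN. The log2 fold change was -1.11 (standard error 0.128, 95% interval -1.38 to -0.85).

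SPARC encodes osteonectin, a collagen-binding glycoprotein that affects collagen assembly and loosens cell adhesion. With 21420, 20729 and 22364 normalized counts in GFP and 102191, 108260 and 103192 in RBFOX1 libraries, it was the most abundant member per exon length under both conditions. Its share of all counts on genes went from 0.146 to 0.158% in the GFP libraries to 0.758 to 0.784% in the RBFOX1 libraries. The log2 fold change was 2.28 (standard error 0.0496, 95% interval 2.18 to 2.39), a 4.86-fold higher level. A long noncoding gene on the opposite strand, CLMAT3, had 2, 3 and 0 counts in GFP and was higher in RBFOX1 libraries at 5, 6 and 8 counts (4.82-fold, 95% interval 1.83 to 12.7, adjusted p = 0.00834). Against a limit of 3 counts in each GFP library its mean was at least 2.71-fold higher in RBFOX1 cells. SPARC itself had 17751 to 113011 counts in these libraries, against at most 8 for CLMAT3. Whether reads of either gene were counted for the other was not tested. SPARCL1, or hevin, is the closest relative of SPARC and is best known from astrocytes. All GFP libraries had 0 counts of it and the RBFOX1 libraries 5, 1 and 1. Its 7 counts in all were under the minimum of 10, so it was not tested. Against a limit of 3 counts in each GFP library its mean was at least 1.31-fold higher in RBFOX1 cells, which rests on RBFOX1 replicate 1, since the other RBFOX1 libraries were under that limit. Without a filter on low counts it passed the threshold as higher in both edgeR and DESeq2. Both calls rest on these same 7 counts and are no test of it.

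The thrombospondins THBS1 and THBS2 encode trimeric glycoproteins that inhibit angiogenesis through the receptors CD36 and CD47, and thrombospondin-1 also activates latent TGF-beta. THBS1 had 192, 179 and 222 normalized counts in GFP and 1603, 1636 and 1573 in RBFOX1 libraries. THBS2 had 25264, 26430 and 25509 against 14237, 13742 and 13733. The pair thus moved in opposite directions, each with no overlap between the conditions. The log2 fold change was 3.02 for THBS1 (standard error 0.0727, 95% interval 2.87 to 3.17). It was -0.89 for THBS2 (standard error 0.0462, 95% interval -0.99 to -0.79). Per exon length, THBS2 stood 146 to 188 times above THBS1 in the GFP libraries and 10.7 to 11.3 times above it in the RBFOX1 libraries. The noncoding THBS1-IT1, which overlaps THBS1 on the same strand, had at most 3 counts in a library.

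Tenascin-C, encoded by TNC, is a large hexameric protein that is made in development, wounds and gliomas and counters cell adhesion to fibronectin. TNC had 918, 968 and 823 normalized counts in GFP and 74.4, 68.8 and 71.2 in RBFOX1 libraries. Every RBFOX1 library lay far below every GFP library, and the log2 fold change of -3.66 (standard error 0.0972, 95% interval -3.87 to -3.46) was the largest fall among the members, a 12.7-fold lower level. Of the 20536 genes tested, 45 had a lower value. As the members were chosen with this contrast in view, this place is no result. TNR encodes tenascin-R, which belongs to the perineuronal matrix, and it had no count in any library, which allows up to 3 counts in each.

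SPP1 encodes osteopontin, a phosphoprotein that binds CD44 and integrins and is a well-known product of glioma cells and macrophages. It had 3225, 3068 and 2993 normalized counts in GFP and 259, 304 and 289 in RBFOX1 libraries. As for TNC, every RBFOX1 library lay far below every GFP library. The level was 10.8-fold lower (log2 fold change -3.43, standard error 0.0652, 95% interval -3.57 to -3.29), and 51 genes had a lower value, again as a description.

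FBLN1 encodes fibulin-1, a calcium-binding glycoprotein of fibronectin fibres and basement membranes. It was the member with the smallest difference, at 817, 1214 and 1172 normalized counts in GFP and 1749, 1679 and 1631 in RBFOX1 libraries. GFP replicate 1 was the lowest of its group. The log2 fold change was 0.67 (standard error 0.0987, 95% interval 0.47 to 0.88) with all libraries and 0.50 without GFP replicate 1.

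Divided by exon length and given as FPKM, the levels in GFP cells ranked from SPARC at 334 ± 12.7 (SD, n = 3) and THBS2 at 258 ± 6.16 through SPP1 at 30.8 ± 1.18, FBLN1 at 10.6 ± 2.16 and TNC at 6.79 ± 0.555 to TGFBI at 1.95 ± 0.249, THBS1 at 1.55 ± 0.176 and POSTN at 0.0272 ± 0.0236. The ranges of TGFBI and THBS1 overlapped, and those of the other neighbours from SPARC to POSTN did not. In RBFOX1 cells the order was SPARC at 1624 ± 50.6 (SD, n = 3), THBS2 at 139 ± 2.88, FBLN1 at 16.7 ± 0.586, THBS1 at 12.6 ± 0.249, POSTN at 10.3 ± 0.531, SPP1 at 2.83 ± 0.227, TGFBI at 0.891 ± 0.148 and TNC at 0.537 ± 0.0209, with no overlap between neighbours. POSTN passed SPP1, TNC and TGFBI in this order, and THBS1 passed the same genes. SPARC made up 50.3 to 53.1% of the members' summed FPKM in the GFP libraries and 89.5 to 90.2% in the RBFOX1 libraries, while THBS2 went from 39.1 to 41.4% to 7.38 to 8.03%. In bulk RNA, fewer cells expressing a gene and less RNA per cell cannot be told apart.

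**Figure D2:**
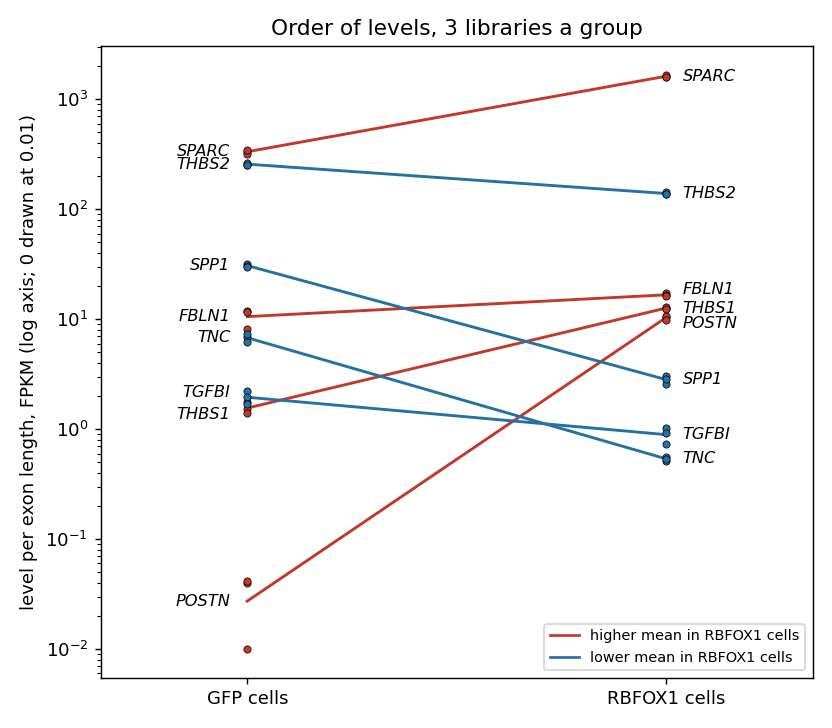
FPKM (log axis) of the 8 members compared, with points for the 3 libraries of each condition and a line between the group means, red where the mean was higher and blue where it was lower in RBFOX1 cells; a level of 0 is drawn at 0.01. SPARC and THBS2 start close together, at 334 and 258, and end at 1624 and 139.

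**Figure D3:**
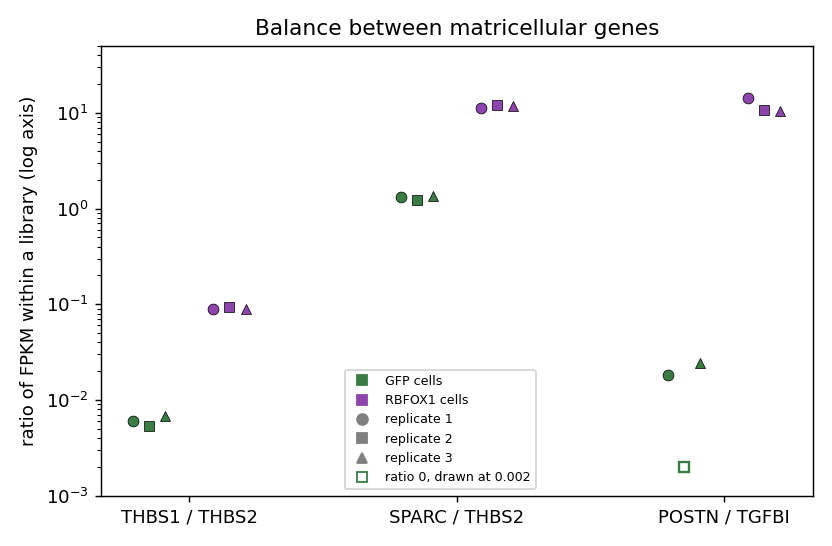
Ratio of FPKM within each library (log axis) for 3 pairs of members, in green for GFP and purple for RBFOX1 cells. THBS1 over THBS2 was 0.00531 to 0.00685 in GFP and 0.0885 to 0.0936 in RBFOX1 libraries, SPARC over THBS2 was 1.22 to 1.36 and 11.1 to 12.2, and POSTN over TGFBI was 0 to 0.0245 and 10.5 to 14.3.

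The 5 protein-coding genes whose values were closest to those of POSTN over the 6 libraries, by the root mean square difference in log2 CPM, were CHI3L1 (0.970), PTGDS (0.976), CPA1 (1.16), GPRIN3 (1.23) and CNN1 (1.37). CHI3L1, a secreted chitinase-like protein and a marker of mesenchymal glioblastoma, went from 16, 5 and 5 to 391, 702 and 794 counts. CNN1, the smooth-muscle calponin, had 13, 3 and 5 counts against 146, 211 and 292. Each of the 5 genes had at most 16 counts in any GFP library. Since they were chosen for closeness to POSTN, these low counts are no separate result.

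Of 29 other genes of the matricellular families (CCN proteins, thrombospondins, tenascins, SPARC relatives, fibulins and others), 19 had enough counts to be tested. At an adjusted p under 0.05 over all genes (edgeR's quasi-likelihood test), 8 rose and 3 fell, compared with 23.7% of all genes higher and 22.9% lower, and the median log2 fold change was 0.83 against 0.005 over all genes. CCN1 and CCN2, secreted integrin ligands that are known targets of YAP, rose from 156 ± 25.7 to 622 ± 55.2 and from 1587 ± 269 to 5300 ± 50.3 normalized counts (SD, n = 3 each), log2 fold changes of 2.001 (adjusted p = 2.04e-12) and 1.75 (adjusted p = 6.46e-13). SPOCK1, which encodes the proteoglycan testican-1 of the SPARC family, rose by 1.83 (adjusted p = 2.61e-11). EFEMP2, the fibulin-4 gene, and the SPARC relative FSTL1, both chosen after their values were seen, rose by 1.27 and 0.83 (adjusted p = 7.64e-13 and 2.26e-11). CCN3 moved against CCN1 and CCN2, from 436 ± 44.6 to 218 ± 6.95 normalized counts (SD, n = 3 each, log2 fold change -1.01, adjusted p = 1.05e-08). The elastic-fibre gene FBLN5 fell by 0.76 on the log2 scale (adjusted p = 0.00285), and the tenascin-X gene TNXB by 0.37 (adjusted p = 0.0154). Without GFP replicate 1 the value of TNXB was -0.21 (adjusted p = 0.179), and without RBFOX1 replicate 2 it was -0.35 (adjusted p = 0.0584).

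Among 19 receptors that bind these proteins, 16 were tested and 11 fell while 2 rose, beside 22.9% of all genes lower and 23.7% higher, with a median log2 fold change of -0.65, or -0.62 with ITGB3 at its bound. The heparan sulphate proteoglycan gene SDC4, a fibronectin co-receptor, went from 1817 ± 37.6 to 419 ± 21.8 normalized counts (SD, n = 3 each, log2 fold change -2.13, adjusted p = 3.46e-16). ITGB1, the beta subunit shared by many matrix-binding integrins, fell by 1.097 (adjusted p = 2.74e-13) and ITGB8, whose integrin activates latent TGF-beta, fell by 1.03 (adjusted p = 1.78e-11). Of the subunits of the integrins that bind periostin, ITGAV and ITGB5 fell by 0.60 and 0.52 (adjusted p = 1.46e-09 and 9.5e-09), and ITGB3 had at most 7 counts in a library. CD44, the osteopontin and hyaluronan receptor, fell by 0.90 (adjusted p = 6.75e-09). These last genes were named after their values were seen, as was CD36, which rose from 6, 1 and 3 to 6, 10 and 16 counts (adjusted p = 0.000961). LRP1, which takes up thrombospondins from the cell surface, had 4722 ± 1181 against 5793 ± 482 normalized counts (SD, n = 3 each) with overlapping groups, a log2 fold change of 0.30 (adjusted p = 0.0417) that was 0.10 without GFP replicate 1 (adjusted p = 0.12), 0.26 without RBFOX1 replicate 1 (adjusted p = 0.167) and 0.29 without RBFOX1 replicate 2 (adjusted p = 0.118). Besides ITGB3, ITGB6 (-0.69, adjusted p = 0.135) and CNTN1 (-0.10, adjusted p = 0.562) did not pass the threshold. Without GFP replicate 1 the receptors that fell numbered 12 instead of 11. The added one was ITGB3, since ITGB6 and CNTN1 passed the threshold in no alternative.

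Matrix components, cross-linkers and proteases that these proteins bind or that act on the same matrix moved both ways. Of 18 such genes, 16 were tested, 9 rose and 4 fell, beside 23.7% of all genes higher and 22.9% lower, and the median log2 fold change was 0.34. The fibrillar collagen genes COL1A1 and COL3A1 rose from 46.9 ± 7.72 to 802 ± 147 and from 3867 ± 226 to 32233 ± 1376 normalized counts (SD, n = 3 each), log2 fold changes of 4.06 (adjusted p = 4.61e-15) and 3.06 (adjusted p = 7.82e-19). COL1A2, chosen after its value was seen, rose by 2.55 (adjusted p = 6.12e-18). HAPLN1, whose product links hyaluronan to proteoglycans, rose by 3.32 (adjusted p = 4.94e-17). The protease genes ADAMTS1 and MMP2 fell by 0.87 and 0.85 (adjusted p = 9.15e-06 and 3.01e-10), and VCAN, the proteoglycan versican, fell by 0.40 (adjusted p = 1.03e-06). FN1, the gene of fibronectin, which periostin and tenascin-C both bind, fell by 0.34 (adjusted p = 3.7e-05) and was named after its value was seen. The cross-linking enzyme gene LOX (0.12, adjusted p = 0.342), MMP9 (-0.090, adjusted p = 0.832) and HAPLN2, with at most 5 counts in a library, did not pass.

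TGF-beta is a classical inducer of several members, and all 16 genes listed for this pathway and for transcription factors known to act on POSTN or TNC were tested, of which 3 rose and 7 fell, beside the same shares of all genes, with a median log2 fold change of -0.16. The ligand genes TGFB3 and TGFB2 rose from 19.7 ± 2.47 to 113 ± 5.80 and from 516 ± 50.6 to 1453 ± 87.6 normalized counts (SD, n = 3 each), log2 fold changes of 2.50 (adjusted p = 1.51e-10) and 1.504 (adjusted p = 9.34e-13). TGFB1 had a log2 fold change of -0.16 (adjusted p = 0.132), or of -0.26 without GFP replicate 1 (adjusted p = 0.00256). PRRX1, a homeobox factor of mesenchymal cells, rose by 0.63 (adjusted p = 2.18e-08). The transcription factor genes TWIST1 (-0.09, adjusted p = 0.538) and RUNX2 (0.14, adjusted p = 0.516), named after their values were seen, did not pass the threshold. The receptor genes lay on the other side. TGFBR2 went from 3602 ± 133 to 1216 ± 117 normalized counts (SD, n = 3 each, log2 fold change -1.57, adjusted p = 5.38e-14), and TGFBR1 and TGFBR3, named after their values were seen, fell by 1.00 and 1.37 (adjusted p = 1.63e-11 and 1.59e-06). The microfibril gene LTBP2 fell by 1.39 (adjusted p = 5.35e-13).

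**Figure D4:**
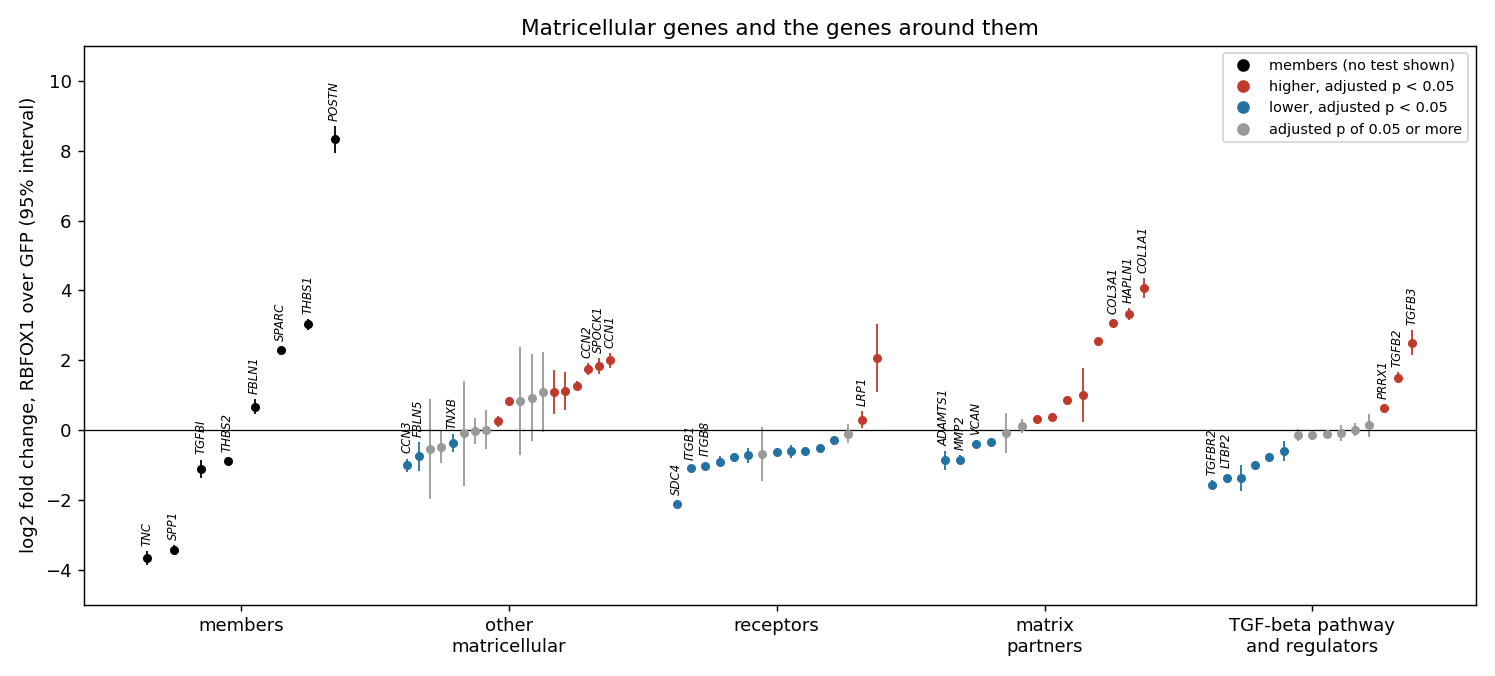
Log2 fold change of RBFOX1 over GFP cells with its 95% interval for the 8 members compared (black, no test shown) and for tested genes of 4 other lists, red or blue where the adjusted p was under 0.05 and grey otherwise; a gene is left out where no library of a condition had more than 3 counts. Receptors lie mostly below 0, with SDC4 lowest at -2.13, and collagens above it, with COL1A1 at 4.06.

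The 8 glioblastoma and astroglial markers summed to 968 to 1014 FPKM in GFP and 659 to 670 FPKM in RBFOX1 libraries. Most of this sum was VIM, with a mean of 830 FPKM in GFP and 528 FPKM in RBFOX1 cells. Of the 7 tested, 2 were called higher, SOX2 and NES (log2 fold changes 2.53 and 0.60). The 3 called lower were VIM, CD44 and OLIG2 (-0.65, -0.90 and -0.50). Markers of other cells were read in the same libraries. The 7 fibroblast markers summed to 25.5 to 26.4 FPKM in GFP and 98.4 to 113 FPKM in RBFOX1 libraries, and 5 of the 6 tested were called higher. COL1A1, COL1A2 and PDGFRB made up most of this level. LUM and PDGFRA were also among those called higher, at 0 to 6 and 5 to 30 counts per library, and DCN had 0 or 1. The 5 osteoblast markers summed to 1.40 to 2.48 FPKM, with no call and with IBSP at 0. The 4 endothelial markers summed to 0.183 to 0.214 FPKM in GFP and 0.913 to 1.16 FPKM in RBFOX1 libraries, where 3 were called higher. The 4 myeloid markers summed to 0.276 to 0.409 and 0.704 to 1.01 FPKM, with 2 of the 3 tested called higher and AIF1 at 0, and the 4 oligodendrocyte markers to at most 0.175 FPKM, with 1 of 2 called higher and MOG and MAG at 0. The part of any such cells in the members' values was not tested.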

How the data were processed

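Total RNA of 3 GFP and 3 RBFOX1 replicates of the stable A172 cells was sequenced. Whether each replicate was a separately transduced line is not given in the sources used here. Alignment by the authors used HISAT2 and GRCh38. HTSeq-count (intersection-strict mode, reverse strand) then assigned reads to Ensembl v87 genes, and the authors deposited the unnormalized read counts of each library. Tool versions are not given in the sources used here. Read pairs on no gene (6.61 to 8.74%), on more than one gene (6.89 to 9.35%), of low mapping quality (16.8 to 27.0%) or not aligned (4.64 to 7.46%) were left out of all sums and tests. A deposited table of the authors' own DESeq2 comparison (mean normalized count, fold change, standard error, statistic and p-values) was not used.

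Genes with at least 10 counts over the libraries were scaled by TMM. The test was the quasi-likelihood F-test of edgeR (version 4.0.16 in R 4.3.3), which is two-sided, in a model holding condition alone. P-values were adjusted by Benjamini-Hochberg over all 20536 genes, with a threshold of 0.05. Normalized counts are counts divided by the effective library size and multiplied by its mean. FPKM divides by the summed exon length of GENCODE release 44, which matched 98.1% of identifiers and gave coordinates and 3′ UTRs. Gene levels depend on that length, so levels of different genes are less certain than differences between conditions. The 11 motif sites were checked against the GRCh38 sequence. Where no library of a group had more than 3 counts, a fold given as "at least" is a bound against 3 counts per library. List medians were also taken with such a bound for each gene that no library of one condition measured above 3 counts. In the shallowest library 3 counts were worth 5.44 normalized counts. Limits of this kind cover counting error only.

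The members and all lists were chosen with earlier results of these data known. Named were RBFOX1, the 10 members, genes that overlap a member on the same strand, the protein-coding neighbours of POSTN, the 5 protein-coding genes closest to POSTN in log2 CPM (prior count 2), and from each other list the 3 largest rises and 3 largest falls among called genes whose mean was at least 50 normalized counts. A gene that this rule names is not reported here. Other genes named were chosen after their values were seen. Genes on the opposite strand were added. The replicates are separate samples per the labels and methods. Alternatives were DESeq2 (1.42.0), limma-voom (3.58.1), other scalings, filters and thresholds, a replicate block and the omission of each library. On simulated counts, edgeR recovered 200 of 200 genes changed 2-fold, with 6 false calls among 206, over 20572 genes.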

Additional observations from a re-analysis of the deposited data

How the results depend on the processing

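All 8 members compared kept their direction under the 14 alternatives run for each. For POSTN the log2 fold change lay between 7.93 and 8.76 and for RBFOX1 between 13.16 and 14.73, the extremes coming from the omission of a library. Without TMM factors SPARC moved to 2.33 and THBS2 to -0.84. A minimum absolute log2 fold change of 1 left 1691 genes higher and 920 lower among all genes, against 4869 and 4712. It left 1 other matricellular gene, 3 receptors and 0 matrix partners lower and 1 receptor higher. At the same minimum 6 other matricellular genes and 6 matrix partners stayed higher. The TGF-beta list kept 2 higher and 5 lower. The receptors that rose numbered 1 instead of 2 with upper quartile scaling, with DESeq2 run without the filter on low counts and at an adjusted p under 0.01, and 1 to 2 with each library left out, the loss being LRP1 (adjusted p = 0.12 without GFP replicate 1, 0.312 with that DESeq2 fit). TNXB also lost its call in that DESeq2 fit (adjusted p = 0.105), which changed the tool and the filter together. Among genes that had not passed the threshold, LOX turned to -0.042 without GFP replicate 1 (range over omissions -0.042 to 0.21) and MMP9 to 0.011 without GFP replicate 3 (range -0.24 to 0.011). The cause of these shifts was not tested. The deviations from the group means of same-numbered libraries correlated at -0.174, 0.0348 and -0.0586 over 12012 genes. Those of differently numbered libraries correlated at -0.161 to 0.181. Pairing by replicate number thus did not show, but 3 libraries a group are too few to exclude it. With the replicate block 4588 genes were higher and 4458 lower, and the members' calls stayed at 4 and 4. Depth limits SPARCL1, TNR and the GFP level of POSTN.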
